A study of Rattus norvegicus with 2 samples.

Results

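The small leucine-rich proteoglycans are a family of secreted matrix proteins, and 9 of their genes were examined here in single cells of skeletal muscle: Dcn, Bgn, Aspn, Lum, Fmod, Kera, Prelp, Omd and Ogn. The genes were taken by name from the rat and the mouse gene lists of the files, and no threshold on a measured value entered the choice. The rat list of 23373 genes held 8 of them, because no rat row carried the name Ogn and rat Ogn was not analysed here, while the mouse list of 25906 genes held all 9. The combined list of the series had 49279 genes.

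The study compared 2 animals, a Sprague-Dawley (SD) rat and a rat-mouse chimera, the latter made by injecting a rat embryo with mouse induced pluripotent stem cells (iPSCs). These iPSCs were Dmd mdx; Pax7-nGFP cells, that is, they came from the dystrophin-deficient mdx mouse, carried a nuclear GFP reporter of the satellite cell gene Pax7, and had been gene-edited to restore the dystrophin reading frame. The chimera therefore held unedited rat host cells and edited mouse cells side by side, whereas the SD rat held rat cells alone. The comparison addressed which cells of the muscle descended from the iPSCs and how the composition of the chimera compared with that of an ordinary rat. Ages and sexes were not given in the sources used here. Both animals gave skeletal muscle of the whole body, which was digested with collagenase and sorted for live cells before droplet sequencing of transcript 3′ ends. There was 1 library per animal, so no difference between them had a replicate check and none was tested.

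Background on the family helps to read the values. All of these proteins consist of a short core of leucine-rich repeats that binds collagen, and most carry glycosaminoglycan chains, chondroitin or dermatan sulfate on decorin (Dcn) and biglycan (Bgn) and keratan sulfate on lumican (Lum), fibromodulin (Fmod) and keratocan (Kera). Bound to collagen, they set how fibrils grow in diameter and how they are spaced, and decorin and biglycan also bind growth factors of the TGF-β family. In skeletal muscle the main producers are fibro-adipogenic progenitors (FAPs), the resident interstitial fibroblasts, and tenocytes, the cells of tendon. Fibromodulin and biglycan are well known from tendon, and keratocan from the cornea.

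The SD rat library had 70957559 unique molecular identifiers (UMIs, each standing for 1 captured transcript) in 10117 barcodes, and the chimera library 118872850 UMIs in 13299 barcodes. After filters, 8816 SD rat cells remained. Chimera cells were called rat when at most 20% of their UMIs fell on mouse genes and mouse when at least 80% did, which gave 8230 chimera rat cells and 1847 chimera mouse cells and left out 1653 mixed barcodes. The libraries shared 43 barcodes. Cells were clustered without the 9 genes, and clusters were called "X-like" from marker lists. FAP-like cells numbered 3207 in the SD rat, 2635 among chimera rat cells and 125 among chimera mouse cells, and tenocyte-like cells 546, 584 and 39. Tnmd, the gene of the tendon protein tenomodulin, had 2807 CPM (UMIs of the gene scaled to a class total of 1000000) in tenocyte-like and 23.7 in FAP-like cells of the SD rat. It was itself a tenocyte marker used for the names, so this contrast is no separate check of them. Throughout, CPM divides the summed UMIs of a gene in a class by all UMIs of the cell's own species, intervals are exact 95% intervals for counting error only, and no length correction was made because each transcript was counted once at its 3′ end. Comparisons of level between different genes are limited by how well each 3′ end was captured.

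Nearly all transcripts of the family lay in fibroblasts. FAP-like and tenocyte-like cells together, called fibroblast-like below, held 96.1% of the 531129 UMIs of the family in the SD rat, in 42.6% of the cells. Among chimera rat cells they held 94.9% of 504943 UMIs, in 39.1% of the cells, and among chimera mouse cells 97.9% of 45358 UMIs, in 8.88% of the cells. All 8 genes that could be compared were at least 2-fold higher in fibroblast-like than in the other cells in each of the 3 populations, where 6.70%, 7.60% and 9.51% of all genes were. For mouse Omd there were too few UMIs for this count. The family made up 1.19% of all UMIs in FAP-like and 1.76% in tenocyte-like cells of the SD rat, 1.33% and 1.87% among chimera rat cells, and 1.78% and 1.93% among chimera mouse cells.

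**Figure D1:**
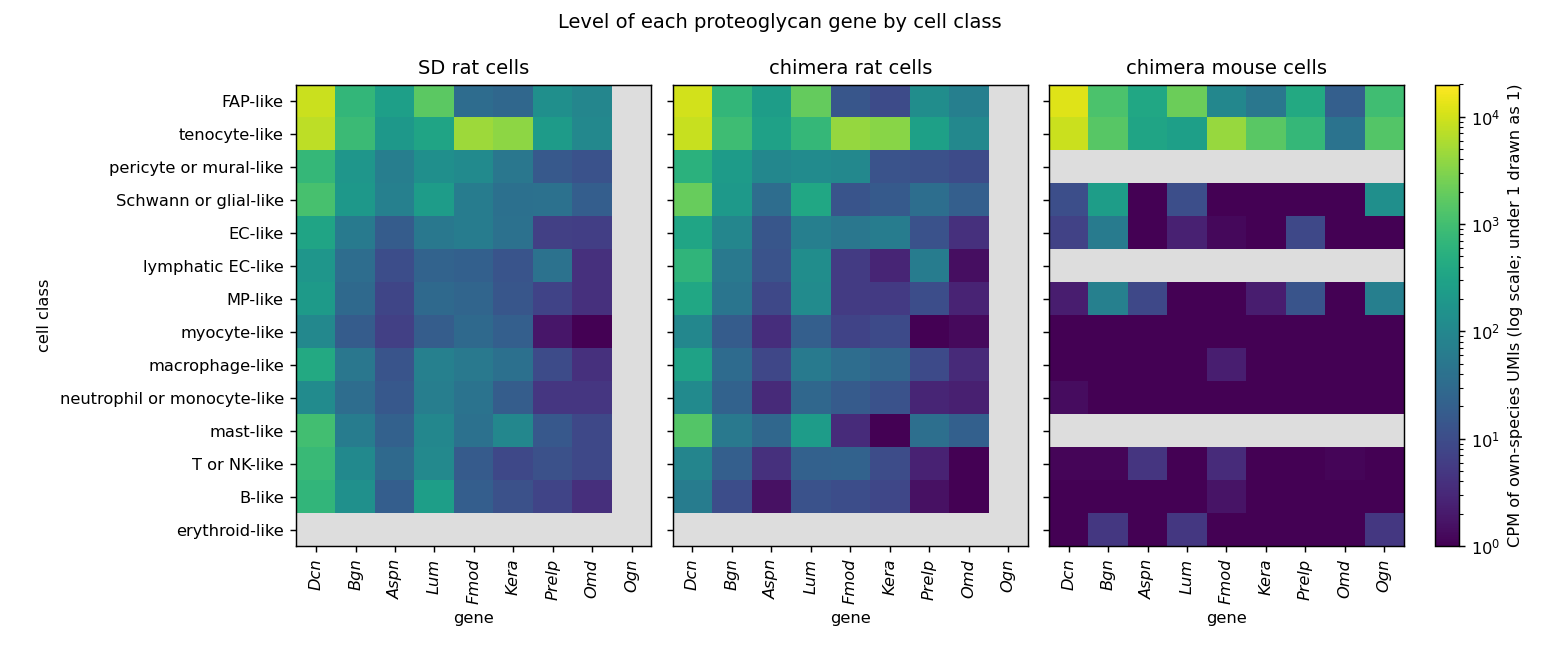
Level of each gene (columns) in each cell class (rows) for SD rat, chimera rat and chimera mouse cells, as CPM of own-species UMIs on a logarithmic colour scale, with classes or genes that had no value in grey. The 2 top rows hold the high values, Dcn is bright in both of them, Fmod and Kera are bright only in the tenocyte-like row, and the mouse panel is dark outside the fibroblast-like rows except for Bgn and Ogn.

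Dcn, which encodes decorin, was the most abundant family member in both fibroblast-like classes. Its level was 8929 CPM in FAP-like and 7462 CPM in tenocyte-like cells of the SD rat, 10194 and 8706 CPM in those of chimera rat cells, and 12492 and 8982 CPM in those of chimera mouse cells. It ranked 10th of all genes by summed UMIs in SD rat FAP-like cells and 3rd in those of mouse origin. At least 1 Dcn UMI was found in 99.8% of SD rat FAP-like cells, with a median of 86.2 Dcn UMIs per 10000 UMIs of a cell and quartiles of 58.4 and 111. Tenocyte-like cells had a lower median, 61.7 per 10000. The log2 ratio of tenocyte-like to FAP-like cells, taken on CPM plus 10 here and below, was -0.26 in the SD rat, -0.23 in chimera rat cells and -0.48 in chimera mouse cells. Dcn was thus lower in tenocyte-like cells in all 3 populations, by less than 2-fold.

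Bgn, the gene of biglycan, lay about an order of magnitude below Dcn. Its level was 715 CPM in FAP-like and 864 CPM in tenocyte-like cells of the SD rat, 691 and 915 CPM among chimera rat cells, and 1214 and 1505 CPM among chimera mouse cells. The log2 ratio was 0.27, 0.40 and 0.31 in these populations, so Bgn was the higher in tenocyte-like cells each time, again by less than 2-fold.

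Aspn encodes asporin, a relative of decorin that carries no glycosaminoglycan chain and binds TGF-β. It measured 263 CPM in FAP-like and 200.3 CPM in tenocyte-like cells of the SD rat, a log2 ratio of -0.38 (95% counting interval -0.47 to -0.28). Among chimera rat cells the order was the other way round, with 249.7 CPM in FAP-like and 293 CPM in tenocyte-like cells and a log2 ratio of 0.22 (0.14 to 0.30). Chimera mouse cells had 372 and 327 CPM, and the interval of their log2 ratio, -0.41 to 0.05, included 0.

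Fmod and Kera were the members that set tenocyte-like cells apart. Fmod, encoding the tendon proteoglycan fibromodulin, reached 4724 CPM in tenocyte-like cells of the SD rat against 33.5 CPM in FAP-like cells, 4156 against 14.3 CPM among chimera rat cells, and 4408 against 97.7 CPM among chimera mouse cells. The log2 ratios were 6.76, 7.42 and 5.36. Kera, encoding keratocan, reached 3696 against 27.2 CPM in the SD rat, 3472 against 9.75 CPM among chimera rat cells, and 1602 against 51.5 CPM among chimera mouse cells, with log2 ratios of 6.64, 7.46 and 4.71. Fmod was found in 97.6% of SD rat tenocyte-like cells and Kera in 87.9%. By summed UMIs Fmod ranked 20th and Kera 27th of all genes in these cells, and 3665th and 4234th in FAP-like cells. Tenocyte-like cells held 89.3%, 92.8% and 92.9% of all Fmod UMIs in the 3 populations, and 90.3%, 94.0% and 90.3% of all Kera UMIs.

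The low values of Fmod and Kera in rat FAP-like cells were set beside those of T, NK and B-like cells, which should lack both genes and show the free RNA in the droplets. With every cell thinned to 1000 UMIs, 2.19% of SD rat FAP-like cells had a Fmod UMI and 1.65% a Kera UMI. The shares in T, NK and B-like cells were 2.48% and 1.86%. Among chimera rat cells the shares were 0.957% for either gene in FAP-like cells and 1.19% and 0.734% in lymphocytes. Median depths before thinning were 10921 and 10596 UMIs in FAP-like cells and 4913 and 5733 in lymphocytes. By summed level the SD rat FAP-like cells were above these lymphocytes, with 33.5 against 17.7 CPM of Fmod and 27.2 against 9.39 CPM of Kera, while those of the chimera were not clearly so, with 14.3 against 19.3 CPM and 9.75 against 9.67 CPM. In chimera mouse cells 6 of 125 FAP-like cells had any Fmod UMI, and 1 of them held 120 of the 182 UMIs.

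Lum ran the opposite way. Lumican, which it encodes, is a keratan sulfate proteoglycan of skin, cornea and muscle connective tissue. Its level was 1663 CPM in FAP-like and 326 CPM in tenocyte-like cells of the SD rat, 1926 and 741 CPM among chimera rat cells, and 2192 and 270.5 CPM among chimera mouse cells. The log2 ratios were -2.32, -1.37 and -2.97. FAP-like cells held 93.8%, 87.9% and 95.4% of all Lum UMIs.

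Prelp and Omd differed less between the fibroblast-like classes. Prelp encodes a proteoglycan that anchors basement membranes to the connective tissue beneath. It measured 137 CPM in FAP-like and 230.2 CPM in tenocyte-like cells of the SD rat, 129.6 and 275 CPM among chimera rat cells, and 408 and 724 CPM among chimera mouse cells, with log2 ratios of 0.71, 1.03 and 0.81. Omd encodes osteomodulin, best known from bone. It measured 92.6 and 103 CPM in the SD rat and 72.7 and 103 CPM among chimera rat cells, with log2 ratios of 0.14 and 0.45. Mouse Omd had 62 UMIs in all in these classes, below the minimum of 100 set for a ratio.

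Ogn, the gene of osteoglycin (mimecan), could be read only on the mouse list. It measured 955 CPM in FAP-like and 1392 CPM in tenocyte-like cells of mouse origin, a log2 ratio of 0.54 (0.42 to 0.66). It was found in 99 of the 125 FAP-like and 35 of the 39 tenocyte-like mouse cells, and ranked 165th and 119th of all mouse genes by summed UMIs.

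Counted together, 2 of 8 genes were at least 2-fold higher in tenocyte-like cells of the SD rat (Fmod and Kera), where 2.56% of all genes were, and 1 of 8 was at least 2-fold lower (Lum), where 4.77% were. Among chimera rat cells 3 of 8 were higher, Prelp being the third with a ratio close to the threshold, against 2.62% of all genes, and 1 of 8 lower, against 5.14%. Among chimera mouse cells 2 of the 8 genes with enough UMIs were higher, against 3.41%, and 1 of 8 lower, against 13.6%. The make-up of the family pool differed accordingly. Of the UMIs of the 8 shared genes, Dcn took 75.3% in SD rat FAP-like cells and 42.4% in tenocyte-like cells, Lum went from 14.0% to 1.85%, Fmod from 0.283% to 26.8%, and Kera from 0.229% to 21.0%. The corresponding Fmod shares were 0.108% and 22.3% among chimera rat cells and 0.580% and 24.7% among chimera mouse cells.

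**Figure D2:**
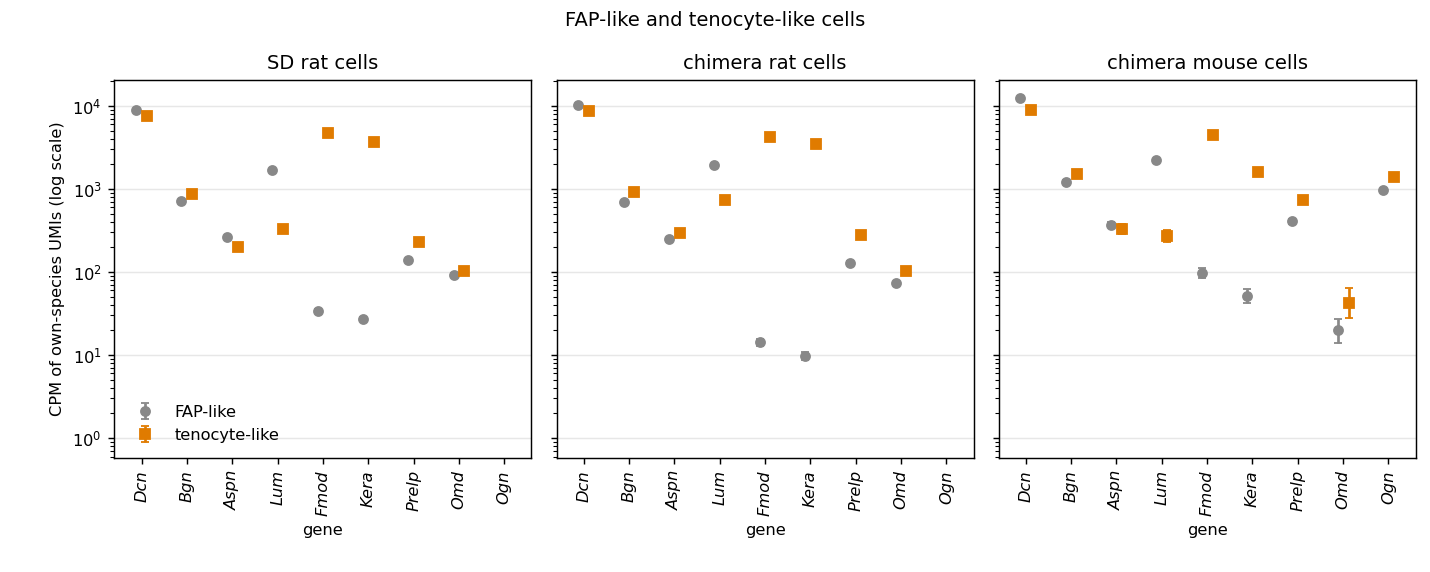
CPM of own-species UMIs (log scale) of each gene in FAP-like cells (grey circles) and tenocyte-like cells (orange squares) of the 3 populations, with exact 95% Poisson intervals that cover counting error only. Fmod and Kera stand 2 orders of magnitude apart in both rat panels, Lum lies lower in tenocyte-like cells in every panel, and the Dcn and Bgn symbols lie close together in every panel; Ogn has values only in the mouse panel.

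The sequence before these genes was looked at because Fmod and Kera moved together while Lum, the direct neighbour of Kera on the chromosome, moved the other way. In the RefSeq annotation of rat build GRCr8 the protein-coding genes run Btg1, Dcn, Lum, Kera, Epyc in a row, Prelp and Fmod are neighbours elsewhere, and Ogn, Omd and Aspn follow each other at a further site. RefSeq promoters of 300 bases (250 before the gene's start and 50 after it) were at hand for 6 of the 9 genes. The 3 that contrast most in tenocyte-like cells are printed 5′ to 3′ on the plus strand, with each E-box (CANNTG, a letter pattern that basic helix-loop-helix factors such as the tendon factor scleraxis bind) in capitals.
Fmod, chr13:48045317-48045616: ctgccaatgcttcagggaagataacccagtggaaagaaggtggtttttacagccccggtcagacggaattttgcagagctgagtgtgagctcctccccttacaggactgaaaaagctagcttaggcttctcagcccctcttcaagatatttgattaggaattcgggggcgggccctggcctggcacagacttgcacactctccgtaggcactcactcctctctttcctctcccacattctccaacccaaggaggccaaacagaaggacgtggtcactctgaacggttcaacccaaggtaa
Kera, chr7:34283850-34284149: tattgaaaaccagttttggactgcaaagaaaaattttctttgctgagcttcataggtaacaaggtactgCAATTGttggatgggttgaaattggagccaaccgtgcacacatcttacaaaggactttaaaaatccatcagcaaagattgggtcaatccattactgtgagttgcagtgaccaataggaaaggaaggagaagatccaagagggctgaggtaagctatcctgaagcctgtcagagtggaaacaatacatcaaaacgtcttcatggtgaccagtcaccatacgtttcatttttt
Lum, chr7:34245456-34245755: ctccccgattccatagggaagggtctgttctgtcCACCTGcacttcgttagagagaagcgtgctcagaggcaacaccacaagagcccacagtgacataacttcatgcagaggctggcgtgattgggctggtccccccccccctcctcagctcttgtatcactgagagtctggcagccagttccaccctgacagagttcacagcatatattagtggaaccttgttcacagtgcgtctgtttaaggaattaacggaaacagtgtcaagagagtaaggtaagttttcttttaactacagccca
Lum and Kera each held 1 E-box, at 216 and 181 bases before the start, and Fmod held none in this window. Of all 33469 RefSeq promoters of this length, 72.1% held at least 1 E-box. The scleraxis-type E-box CATCTG was in none of the 3 and in 16.6% of all promoters, and the TATA motif TATAAA was in none of the 3 and in 14.2%. The GC box GGGCGG occurred once in Fmod, 85 bases before the start, and in 33.1% of all promoters, with both strands searched for each motif.

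Within the fibroblast-like classes the levels varied between clusters, and 9 clusters were paired between the SD rat and the chimera rat cells by their gene profiles (Pearson r 0.765 to 0.948). A further pair, led by muscle and haemoglobin genes, was left out. Dcn was highest in cells led by Apod, at 19973 CPM in the SD rat and 19842 CPM among chimera rat cells. Its lowest level among FAP-like clusters, 4586 and 4161 CPM, lay in cells led by Prg4, the gene of the joint lubricant lubricin. Bgn had nearly the reverse order, with 1237 and 1538 CPM in Prg4-led and 204 and 199.5 CPM in Apod-led cells. Aspn fell as low as 28.4 and 18.3 CPM in Apod-led cells and was highest, at 426 and 458 CPM, in the Pi16 Mfap5-like cells, a type known from the adventitia of vessels. In the same Pi16 Mfap5-like pair Bgn was at 449.7 CPM in the SD rat and 191 CPM among chimera rat cells. These clusters were formed separately and held 663 and 246 cells, and the part of their make-up in this difference was not tested. Over all FAP-like cells Bgn was at 715 and 691 CPM. Lum was highest in Apod-led cells of the SD rat (2725 CPM) and in Agt-led cells of the chimera (2887 CPM). Kera was higher in Prg4-led than in other FAP-like clusters of the 9 pairs, at 111 CPM in the SD rat, where 1 cell held 113 of the 454 UMIs. Among chimera rat cells it was at 41.8 CPM (34.5 to 50.1), where 1 cell held 57 of the 116. This interval overlapped that of Apod-led chimera rat cells, at 34.4 CPM (23.2 to 49.1). After thinning, Kera was found in 5.50% (3.52% to 8.14%) and 2.19% (0.808% to 4.71%) of Prg4-led cells, against 1.86% (0.386% to 5.35%) and 0.734% (0.317% to 1.44%) of T, NK and B-like cells. In Apod-led chimera rat cells the share was 1.71% (0.208% to 6.04%).

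Tenocyte-like cells fell into 2 clusters in each population, a larger one led by the cartilage and tendon genes Chad and Cilp2 and a smaller by Chodl and Col22a1, the latter a collagen of the muscle-tendon junction. Fmod was 5823 CPM in the Chad-led and 1618 CPM in the Chodl-led cells of the SD rat, 5559 and 1905 CPM among chimera rat cells, and 6412 and 1208 CPM among chimera mouse cells. Kera was 4572 and 1148 CPM, 4824 and 1390 CPM, and 2019 and 933 CPM in the same order. Chad-led cells were also the higher in Dcn, with 8660 and 4122 CPM in the SD rat, 10723 and 5565 CPM among chimera rat cells, and 12483 and 3668 CPM among the 24 and 16 chimera mouse cells. All fibroblast-like cells were clustered anew for this, so cluster sizes need not add up to the size of a class. Prelp followed, with 290.4 and 85.2 CPM, 366 and 117 CPM, and 1138 and 199.9 CPM. Aspn was the exception and lay higher in Chodl-led cells, at 381 CPM against 145 in the SD rat, 365 against 246 among chimera rat cells, and 662 against 190.5 among chimera mouse cells. These clusters were formed without the family genes, but on genes of the same cells, so the contrasts between them are descriptions.

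**Figure D3:**
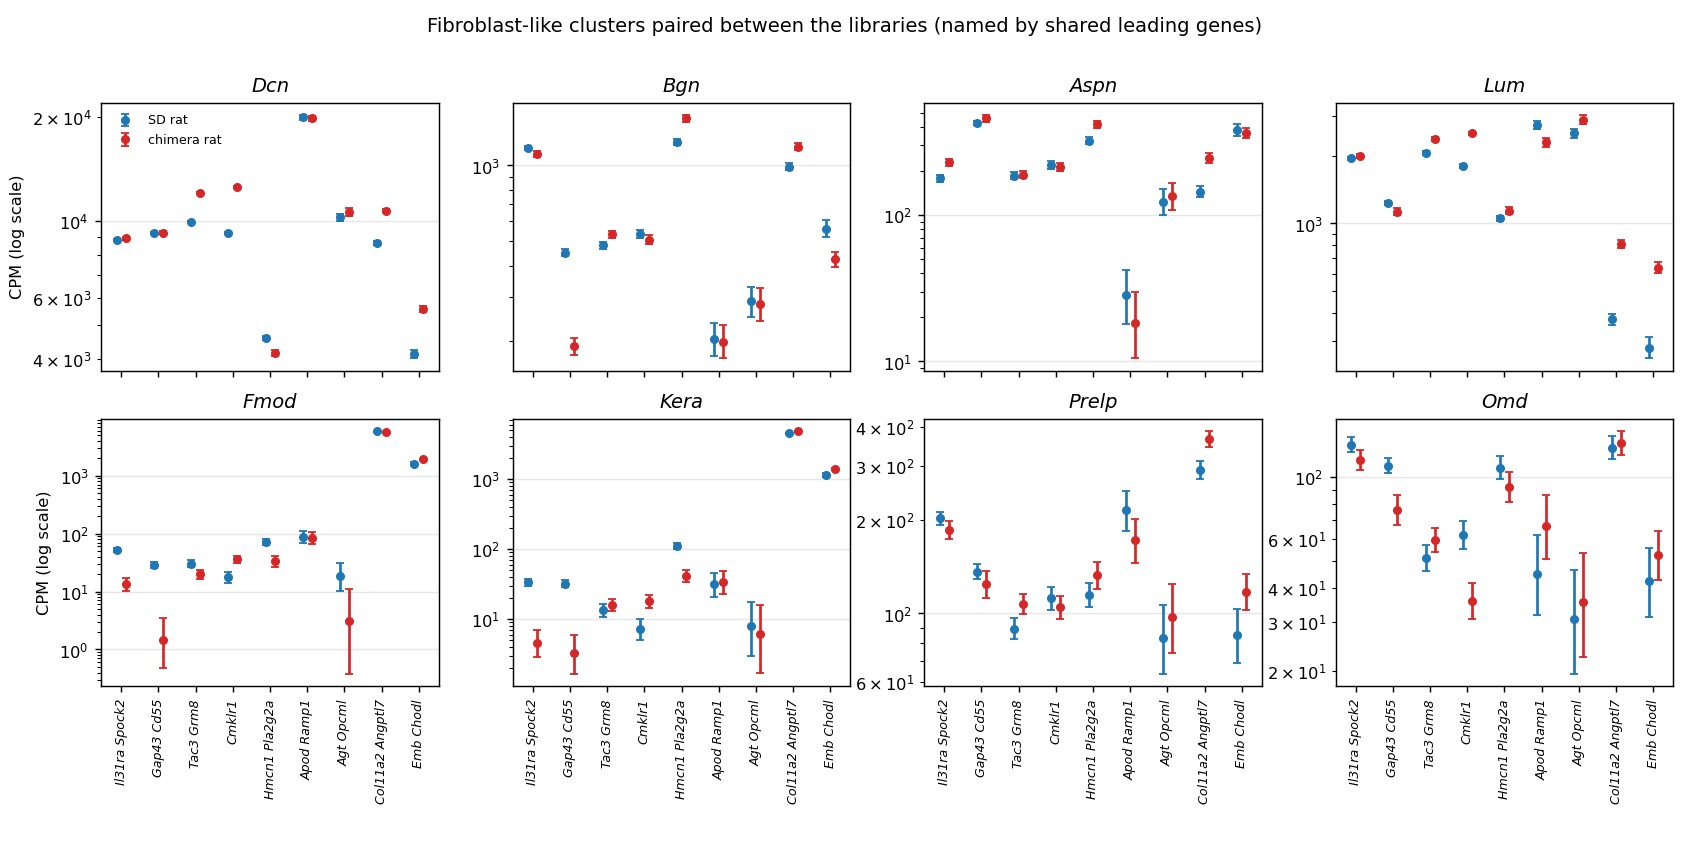
CPM (log scale, exact 95% Poisson intervals for counting error) of the 8 rat genes in 9 fibroblast-like clusters paired between the SD rat (blue) and chimera rat cells (red), each named by leading genes that both members of a pair share; Gap43 Cd55 is the Pi16 Mfap5-like pair, Hmcn1 Pla2g2a the Prg4-led pair, and the 2 rightmost pairs are tenocyte-like. Fmod and Kera are above 1000 CPM only in the 2 rightmost pairs. Kera is next highest in the Hmcn1 Pla2g2a pair (111 and 41.8 CPM), where the red interval overlaps that of the Apod pair. The Apod pair is highest for Dcn and lowest for Aspn, and the libraries lie apart for Bgn in the Gap43 Cd55 pair (449.7 and 191 CPM).

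Outside fibroblast-like and cycling-like cells, the order of classes differed between genes of the family. In the SD rat, Dcn was highest there in Schwann or glial-like cells, Fmod in pericyte or mural-like, Kera in mast-like and Lum in B-like cells. How much of these values was free RNA was not tested. Dcn itself measured 792 CPM in T, NK and B-like cells of the SD rat, where 1 cell held 180 of the 759 UMIs, 85.0 CPM in those of chimera rat cells, and 0.972 CPM (2 UMIs in 222 cells) in those of chimera mouse cells. Apart from cycling-like cells, Dcn of the other classes of the SD rat lay between 102 CPM in myocyte-like and 1118 CPM in Schwann or glial-like cells. Among chimera rat cells the same classes were all above the lymphocytes, from 96.6 CPM in myocyte-like to 2010 CPM in Schwann or glial-like cells. Mast-like cells there had 1423 CPM and lymphatic EC-like cells 652 CPM of Dcn. Mouse cells carried very little free RNA on mouse genes, and the 30 myocyte-like mouse cells had 0 UMIs of all 9 genes, which allows up to 10.0% of such cells with a UMI for each gene.

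Against this background a few genes stood out in some classes. In pericyte or mural-like cells, the cells wrapped around small vessels, Aspn was found after thinning to 1000 UMIs in 8.26% of SD rat and 7.02% of chimera rat cells, against 0.621% and 0.183% of lymphocytes, with median depths of 3089 and 4693.5 UMIs. Bgn was found in 9.44% and 18.2% of these cells, against 3.73% and 1.01% of lymphocytes, and the intervals overlapped in the SD rat (6.55% to 13.1% and 1.38% to 7.93%). Fmod reached 9.44% and 9.20%, against 2.48% and 1.19%, at 113 and 103 CPM. In the SD rat the share for Fmod in endothelial (EC) cells, 7.83%, was within the interval of that in mural cells (6.55% to 13.1%), whereas in chimera rat cells it was 2.59% and outside the interval (6.59% to 12.4%). Kera was found in 4.72% and 1.21% of mural cells. In the SD rat it measured 49.8 CPM there, against 9.39 CPM in lymphocytes. Among chimera rat cells it measured 12.6 CPM, against 10.1 CPM in T or NK-like and 8.36 CPM in B-like cells. Schwann or glial-like cells of the SD rat were close to mural cells in CPM of Aspn (74.2 and 69.5) and Bgn (198 and 184). Among chimera rat cells they had 34.6 against 99.8 CPM of Aspn and 212 against 233 CPM of Bgn. The mural clusters also raised markers of other classes, 11 of EC cells in the SD rat, and 11 of myocytes or 12 of EC cells in the chimera. The part of other cells in these values was not tested.

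Chimera rat cells were then set against SD rat cells within these 2 vessel classes, where the level rests on few UMIs. In EC-like cells 0 of the 8 genes were at least 2-fold higher in the chimera and 0 were lower, where 1.16% and 1.36% of all 7129 genes were, and 6 of the 8 reached the 100 summed UMIs used for all genes. Median depth in this class was 1859 UMIs in the SD rat and 3447 among chimera rat cells. SD rat EC-like clusters of 435 and 431 cells, with medians of 697 and 1351 UMIs, each also raised 11 myocyte markers. The part of this in the ratios was not tested. In mural cells 0 of the 8 were higher and 1 was lower, where 0.872% and 1.54% of all 5503 genes were, and Prelp and Omd were again below the minimum. The mural class was a single cluster of 387 cells led by Rgs5 in the SD rat, but 2 in the chimera, a cluster of 248 led by Rgs5 and another of 174 led by the smooth muscle genes Tagln, Acta2 and Myh11, and the part of this make-up in the ratios was not tested. The 1 lower gene was Kera, with 94 UMIs (49.8 CPM) in the SD rat and 32 UMIs (12.6 CPM) among chimera rat cells, a log2 ratio of -1.41 (-1.77 to -1.02). These UMIs lay in 37 of 387 and 29 of 422 cells, with 18 of the 94 in 1 cell, and the levels were 5.31 and 1.30 times those of T, NK and B-like cells. Aspn and Bgn were higher in chimera mural cells by less, with log2 ratios of 0.47 (0.19 to 0.74) and 0.33 (0.14 to 0.51), and Dcn was lower, at -0.36 (-0.47 to -0.26).

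Outside fibroblast-like and cycling-like cells, Prelp was highest in the lymphatic EC-like class of rat cells, though other classes came close. It measured 41.5 CPM in the 110 lymphatic EC-like cells of the SD rat and 65.2 CPM in the 82 of the chimera rat cells, and was found after thinning in 4.55% and 6.25% of them, against 1.86% and 0.0917% of lymphocytes and 0.712% and 0.152% of other EC-like cells. The interval in the SD rat, 1.49% to 10.3%, included the lymphocyte share. Per Dcn UMI, Prelp was 13.4 and 6.58 times as frequent there as in fibroblast-like cells.

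The mouse cells of the chimera, with their low background, showed Bgn and Ogn most clearly outside fibroblasts. In the 26 Schwann or glial-like mouse cells, Bgn had 23 UMIs in 10 cells (244 CPM, 155 to 366) and Ogn 13 UMIs in 5 cells (138 CPM, 73.5 to 236), while Dcn had 1 UMI. Rat Schwann or glial-like cells had Bgn in 15.3% and 9.28% of cells after thinning, with 20.8% in the mouse cells. Set against T, NK and B-like cells of the SD rat, their Bgn level was 198 against 120.0 CPM, a log2 ratio of 0.68 (0.35 to 1.02), and that of Dcn 0.49 (0.35 to 0.63). None of the 3 genes with enough UMIs there passed 2-fold, where 18.9% of all genes were higher and 14.2% lower. Mouse EC-like cells had 461 Bgn UMIs in 95 of 1086 cells (62.7 CPM), found after thinning in 4.06% of cells (2.93% to 5.46%), against 0.0989% for Dcn. Prelp in the same cells had 63 UMIs in 41 cells, at 8.56 CPM. Among the 47 mouse muscle progenitor-like cells, 29 of the 33 Ogn UMIs and 19 of the 35 Bgn UMIs came from 1 cell each.

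**Figure D4:**
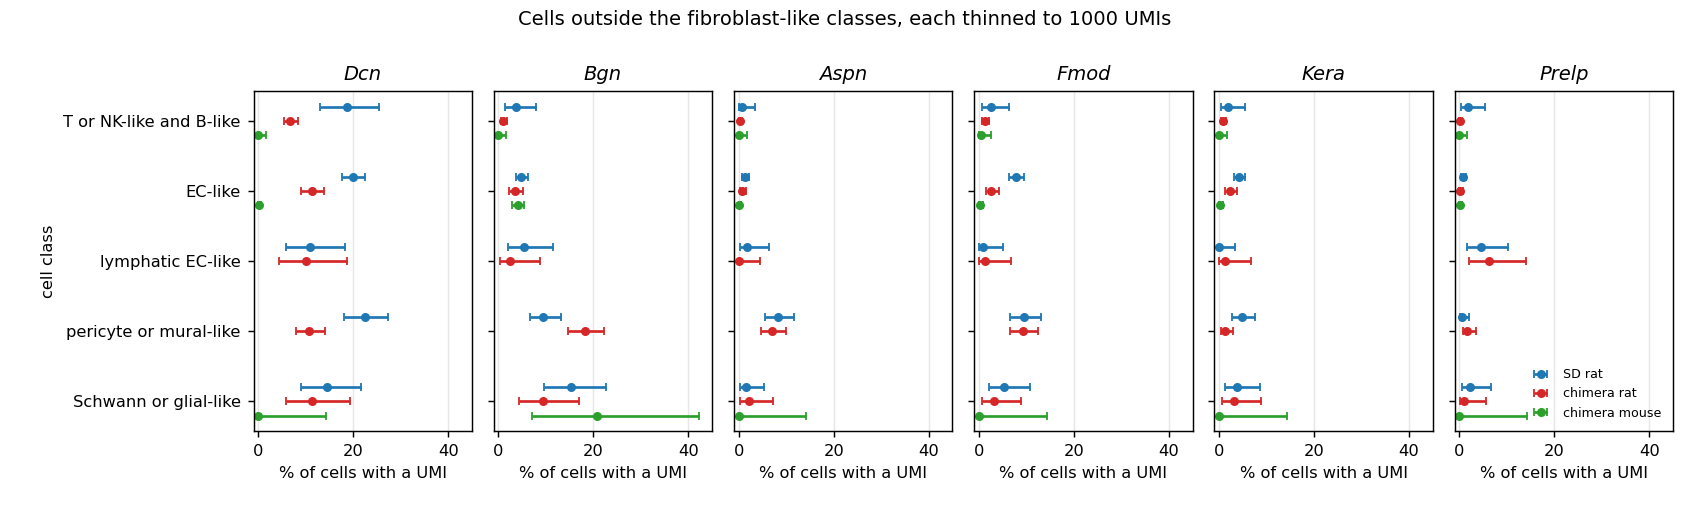
Share of cells with at least 1 UMI of 6 genes in 5 classes outside the fibroblasts, each cell thinned to 1000 UMIs, with exact 95% binomial intervals, for SD rat (blue), chimera rat (red) and chimera mouse cells (green); T, NK and B-like cells stand for the free RNA. Dcn is spread over all rat classes (10.0% to 22.4% outside lymphocytes) and close to 0 in mouse cells. The share for Bgn is above that of T, NK and B-like cells in mural and Schwann or glial-like cells, and so are Aspn and Fmod in mural cells and Prelp in lymphatic EC-like cells. In the SD rat the intervals overlap those of T, NK and B-like cells for Bgn in mural and Prelp in lymphatic EC-like cells. The SD rat share for Fmod in EC-like cells is within the interval of mural cells.

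Rat cells of the chimera and of the SD rat were also compared in the fibroblast-like classes. In fibroblast-like cells 0 of 8 genes were at least 2-fold higher in the chimera, where 0.104% of all genes were, and 0 of 8 at least 2-fold lower, where 0.468% were. At such shares 8 genes would seldom hold a call, so these counts say little about the family. The log2 ratios of chimera rat to SD rat cells were 0.18 for Dcn, 0.20 for Lum, 0.23 for Fmod, 0.31 for Kera, 0.04 for Prelp, -0.01 for Bgn and -0.25 for Omd, and that for Aspn was -0.00036 (-0.04 to 0.04). These signs depended in part on the scale. Chimera rat cells had a median of 11.2% of their UMIs on mouse genes (quartiles 9.18% and 13.5%), and such UMIs do not enter CPM of own-species UMIs. On CPM of all UMIs the ratio of Dcn became -0.00065, those of Lum, Fmod and Kera fell to 0.02, 0.04 and 0.13, and that of Prelp turned to -0.14. The same change of scale moved the median over all genes from 0.03 to -0.06 and the share of higher calls among all calls from 18.2% to 8.14%. Omd was the lower in the chimera on both scales, at -0.25 and -0.41.

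Tenocyte-like cells made up 14.5% of fibroblast-like cells in the SD rat (13.4% to 15.7%) and 18.1% in the chimera rat cells (16.8% to 19.5%), so the pooled values of Fmod and Kera mixed level and share. Within tenocyte-like cells the log2 ratios were -0.18 for Fmod and -0.09 for Kera, opposite in sign to the pooled ones, and within FAP-like cells, where both genes were low, they were -0.84 and -0.91. The pooled rise of these genes in the chimera was therefore not seen inside either class.

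Lum was the 1 gene that passed 2-fold inside a fibroblast-like class on CPM of own-species UMIs. Tenocyte-like cells of the chimera had 741 CPM (718 to 765) of Lum and those of the SD rat 326 CPM (310 to 343), a log2 ratio of 1.16 (1.08 to 1.25). This was the 1 of 8 genes at least 2-fold higher there, where 0.383% of all genes were, and 0 of 8 were lower, where 0.912% were. On CPM of all UMIs, which moved the median over all genes in this class from -0.01 to -0.16 and the share of higher calls from 29.5% to 9.71%, the ratio was 0.97, just under the threshold. Lum was found in 79.1% of chimera and 52.6% of SD rat tenocyte-like cells. Both tenocyte-like clusters showed it, with 810 against 375.5 CPM in Chad-led and 636 against 282 CPM in Chodl-led cells. Prelp, with a log2 ratio of 0.25 in the class, was also higher in both. Aspn, with 0.53, was higher in Chad-led cells alone (246 against 145 CPM) and had 365 against 381 CPM in Chodl-led cells, the richer in Aspn, which numbered 241 beside 328 Chad-led cells in the chimera and 142 beside 409 in the SD rat. In FAP-like cells 0 of 8 genes passed 2-fold in either direction, where 0.133% of all genes were higher and 0.488% lower. On CPM of all UMIs Kera passed the threshold there, at -1.00099 from -0.91. Only 1 animal of each kind was measured, so the difference in Lum cannot be told apart from differences between individual animals or preparations.

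The mouse and rat fibroblast-like cells of the chimera came from the same tissue and library. Prelp was higher in mouse cells, at 483 against 152 CPM (log2 ratio 1.61), the 1 of 8 genes at least 2-fold higher, where 8.22% of gene pairs were. Omd was lower, at 25.3 against 77.4 CPM (-1.31), the 1 of 8 at least 2-fold lower, where 5.84% were. Fmod and Bgn were higher by 0.80 and 0.82, Aspn by 0.48 and Dcn by 0.23 on the log2 scale, Kera was lower at -0.33, and Lum was at -0.01. Each species was counted on its own gene models, and a 3′ end annotated differently in them would change these ratios, which was not tested. Tenocyte-like cells were 23.8% of the mouse fibroblast-like cells (17.5% to 31.0%) and 18.1% of the rat ones, so these ratios mix level and share. Inside tenocyte-like cells Fmod was at 4408 CPM in mouse and 4156 CPM in rat cells, Kera at 1602 and 3472 CPM, and Lum at 270.5 and 741 CPM. Prelp and Bgn were higher in mouse cells in both classes, Prelp at 724 against 275 and 408 against 129.6 CPM and Bgn at 1505 against 915 and 1214 against 691 CPM in tenocyte-like and FAP-like cells.

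Some UMIs of chimera rat fibroblast-like cells lay on the mouse copy of a gene, and whether these were rat transcripts assigned to it or free mouse RNA was not tested. Of the UMIs of the Aspn pair, 6.16% (571 UMIs, in 469 of 3219 cells) lay on the mouse gene, more than for 68.8% of the 3965 gene pairs with at least 1000 UMIs. The other 7 pairs had between 0.0539% (Lum) and 0.475% (Fmod), all below the median of 3.09%. Adding the mouse copy to the rat count left all of these genes within 2-fold of the SD rat. In mouse fibroblast-like cells the share on the rat gene was at most 0.887%.

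**Figure D5:**
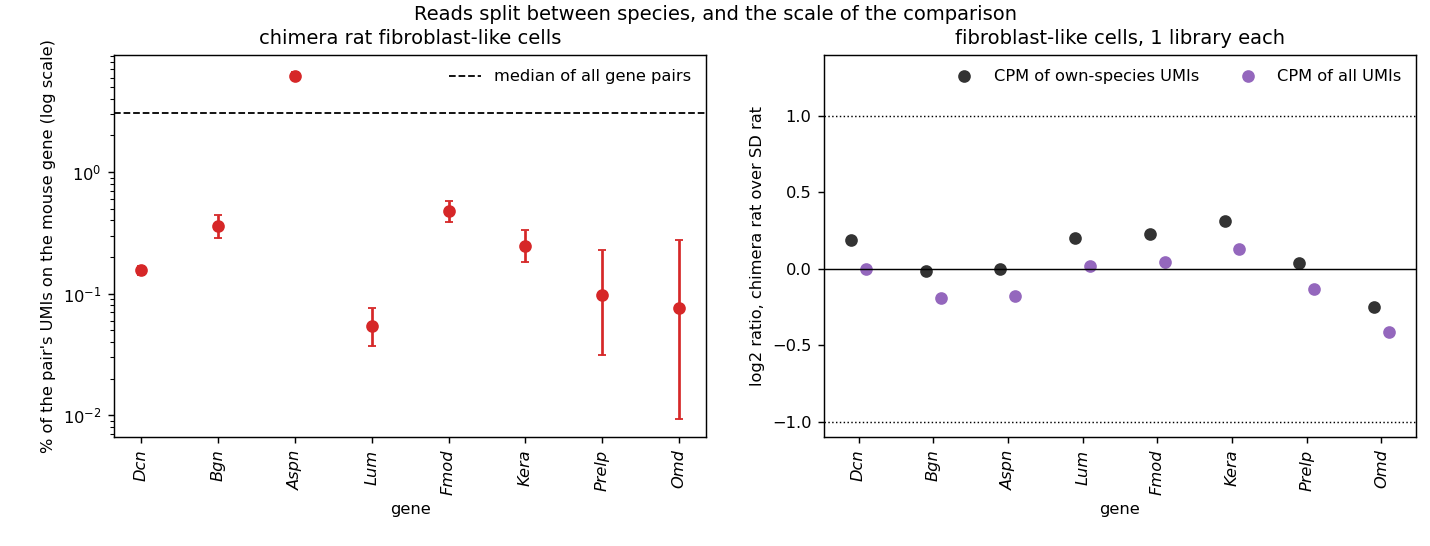
Left, share of each pair's UMIs on the mouse gene in chimera rat fibroblast-like cells (log scale, exact 95% binomial intervals), with the median of all pairs dashed; right, log2 ratio of chimera rat over SD rat fibroblast-like cells with CPM of own-species UMIs (black) and of all UMIs (purple), with 2-fold as dotted lines. Aspn alone lies above the dashed line (6.16%), and no point on the right reaches 2-fold on either scale.

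The partners of the family were compared between tenocyte-like and FAP-like cells list by list. Of the collagens they bind, 3 of 10 were at least 2-fold higher and 3 of 10 lower in both rat populations, with a median log2 ratio of -0.27 in the SD rat and -0.63 among chimera rat cells, beside medians of -0.05 and -0.10 over all genes. Over all genes, 2.56% were higher and 4.77% lower in the SD rat and 2.62% and 5.14% among chimera rat cells, which is the background for every list here. Col12a1, a fibril-associated collagen of tendon that was also among the tenocyte markers, had ratios of 2.85 and 2.24. Col3a1, the fibrillar collagen of loose connective tissue, had -2.70 and -2.74, and Col14a1 -2.27 and -1.87. Of the proteases that cut proteoglycans or process collagen, 3 of 8 were lower and 0 of 8 higher in both, among them Adamts5 (-2.78 and -3.16) and Adamts1 (-2.32 and -2.37). Of the enzymes that build the sugar chains, 0 of 19 for chondroitin and dermatan sulfate were higher and 1 of 19 lower (the sulfotransferase gene Chst7) in both rat populations. Of those for keratan sulfate, 0 of 5 passed in either direction in both. For lists this short, these counts lay near the shares over all genes and say little about the enzymes. Of the receptors and growth factor partners, 6 of 20 were higher in the SD rat and 6 of 19 among chimera rat cells, led by Ccn4 (2.54 and 2.60), with Ccn2 at 1.92 and 2.03, and 0 were lower. The mouse counts, over 39 tenocyte-like cells, were not the same. Where 3.41% of all mouse genes were higher and 13.6% lower, 2 of 10 collagens were higher and 5 lower, 0 of 8 proteases higher and 6 lower, and 2 of 13 receptors and partners higher and 2 lower, with a median of -0.61. Of the mouse sugar chain enzymes, 1 of 8 for chondroitin and dermatan sulfate was higher and 1 lower, and 0 of 2 for keratan sulfate were higher and 1 lower. Chad, a leucine-rich relative found in cartilage and tendon, was the 1 of 3 measurable relatives that was higher in the rat populations, at 413 against 1.15 CPM in the SD rat and 358 against 0.590 CPM among chimera rat cells. Between chimera rat and SD rat fibroblast-like cells no gene of these lists passed 2-fold, where 0.104% of all genes were higher and 0.468% lower. At such shares the lack of calls says little about the lists. The collagens had a median of -0.15 there, beside 0.03 over all genes, with Col1a1 at -0.58 and Col5a1 at -0.76.

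Levels were also compared over 21 points, 11 classes outside fibroblast-like and cycling-like cells and 10 fibroblast-like clusters, all of which share their library. The 10 clusters included the pair led by muscle and haemoglobin genes that was left out above. Over these points, Fmod and Kera had a Pearson r of log2 levels of 0.966 in the SD rat and 0.968 among chimera rat cells. Ranked by the lower of the 2 values, this was the most alike pair of the family, although Dcn and Lum had the higher value among chimera rat cells (0.985, with 0.947 in the SD rat). By the same ranking over all genes, the following were nearest. Nearest to Fmod after Kera were Cilp2 (0.960 and 0.949) and Tnmd (0.947 and 0.939), and Tnmd was nearest to Kera (0.975 and 0.967). Both Cilp2 and Tnmd were among the tenocyte markers that named the classes. Ctsk was nearest to Dcn (0.965 and 0.979), and Dcn nearest to Lum. Bgn was most like Il11ra1 and Aspn most like Loxl2, while Omd was most like Col1a2 (0.960 and 0.980). Lum and its neighbour Kera had an r of 0.01 and 0.23. These values describe the order of levels over classes and carry no test.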

How the data were processed

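10x Genomics 3′ libraries of 2 animals were analysed, 1 per animal. The deposited files hold raw UMI counts per gene and barcode that the authors made with Cell Ranger 7.1.0 on the rat build mRatBN7.2 and, in the chimera, also on the mouse build GRCm39 (submitters' processing notes). Barcodes with at least 500 UMIs, at least 200 genes and at most 20% mitochondrial UMIs were kept, and predicted doublets (1.83% of SD rat and 3.65% of chimera barcodes, scrublet within scanpy 1.11.5) were left out. Each population was clustered on its own (log-normalised counts, 2000 variable genes without the 9 family genes, 30 components, Leiden resolution 1, leidenalg 0.10.2) and named by marker lists. The scoring rule for names was set after the clusters were seen, and the family and all lists were chosen with earlier results of these data known. UMIs were summed per class and compared as log2(CPM + 10) where both classes together had at least 100 UMIs, and a gene was called at 2-fold or more. All family members were reported, and other genes by the 3 largest absolute log2 ratios of a list or the 3 most alike profiles. With 1 library per group no test was run. Intervals are exact Poisson or Clopper-Pearson intervals at 95% and cover counting error only. A zero allows up to 3 counts. The calculations were checked on simulated counts. Alternative species thresholds, filters, scalings and clusterings were tried.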

Additional observations from a re-analysis of the deposited data

Results flagged for a closer look

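Aspn, the gene of asporin, went in opposite directions in the rat cells of the 2 animals: the log2 ratio of tenocyte-like to FAP-like cells was -0.38 in the SD rat and 0.22 among chimera rat cells, and neither counting interval included 0. The difference was not tested, since each animal gave 1 library. All 14 alternatives kept both signs, with ranges of -0.50 to -0.34 and 0.16 to 0.55. Those that act on chimera cells only or on the minimum count could not move the SD rat value. The mouse gene held 6.16% of the Aspn UMIs counted in those rat cells, and the part of this split in the result was not tested beyond adding the mouse copy.

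Bgn, Aspn and Prelp differed in sign between the classes when chimera rat cells were set against SD rat cells, again untested. The log2 ratios in FAP-like and tenocyte-like cells were -0.048 and 0.081 for Bgn, -0.073 and 0.53 for Aspn, and -0.077 and 0.25 for Prelp. On CPM of all UMIs Bgn was lower in both classes, at -0.23 and -0.11, while Aspn (-0.25 and 0.34) and Prelp (-0.25 and 0.06) still differed in sign.

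Ogn has no named rat row, yet its mouse row had 94 UMIs in 91 of 3219 chimera rat fibroblast-like cells, which is 2.77 CPM of own-species UMIs, against 3 UMIs in 1091 T, NK and B-like rat cells, or 0.392 CPM. Whether these are rat transcripts on the mouse gene or free mouse RNA was not tested.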

How the results depend on the processing

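The counts of genes past 2-fold were stable. Under 14 alternatives 0 of 8 genes were 2-fold apart between chimera rat and SD rat fibroblast-like cells, and 2 were higher in tenocyte-like cells of the SD rat. Several alternatives could not change the SD rat contrast. The species thresholds, the added mouse copy and CPM of all UMIs act on chimera cells only, and all 8 genes were above the other minimum counts. The 3 of the chimera rat cells became 2 under a 90% species threshold, where Prelp fell to 0.66 and Lum to -0.96, and the 2 between mouse and rat cells became 3 under that threshold and at resolution 2. The ratios of chimera rat to SD rat cells moved more: that of Fmod ranged from -0.64 to 0.65 and that of Kera from -0.83 to 0.74, with the lowest values at the 90% threshold and the highest at resolution 2, and the signs of Dcn, Bgn, Aspn and Prelp also changed in at least 1 alternative. Of 336 ratios of single genes, 250 stayed within their counting interval, a number that includes alternatives that could not move the ratio. The share of family UMIs in fibroblast-like cells moved in 18 cases. It was 91.1% (chimera rat) and 98.2% (chimera mouse) at the 90% threshold, 94.7% and 97.7% at a majority threshold, and 93.4% (SD rat) and 89.4% (chimera rat) with doublets kept. It was 78.5%, 94.99% and 98.1% in the 3 populations with a minimum of 1000 UMIs, 96.0% (SD rat) and 76.4% (chimera rat) at resolution 2, 96.0%, 94.8% and 98.4% with 15 components, and 95.4% and 93.8% with the rat cells of both libraries clustered together. In chimera mouse cells it was 95.9% with the rat copy added and 98.1% with the family among the clustering genes. The lowest values arose where fibroblast clusters stayed unnamed: 664 SD rat cells with 17.5% of the family UMIs, and 798 chimera rat cells with 18.6%. The share was not computed for other scalings, pseudocounts or minimum counts, which do not enter it. No paired analysis was possible because each group had 1 library. Depth limited values near the free RNA and the mouse classes of under 50 cells.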

Other observations

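Cycling-like cells, a class named for division genes that can hold several cell types, had 2766 CPM of Dcn in the SD rat, 3311 CPM among chimera rat cells and 107 CPM among chimera mouse cells. Mast-like rat cells had 994 and 1423 CPM of Dcn, and Kera measured 98.7 CPM in those of the SD rat and 0 among the 53 of the chimera. In chimera rat EC-like cells 1 cell held 125 of the 241 Kera UMIs. The 14 mouse cells of the Smoc2 Cxcl14-like cluster had 20663 CPM of Dcn, 7016 CPM of Lum and 5.20 CPM of Aspn.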
